A study of Mus musculus with 18 samples.

Results

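The transcripts of 31 complement genes, taken by gene symbol out of 53801 mouse genes in the count tables, were followed in islets that carry a MafA variant. Complement is a set of plasma and membrane proteins that marks cells and particles for removal. Antibody-bound C1 starts its classical pathway, sugar-binding lectins with MASP proteases start the lectin pathway, and spontaneous C3 turnover with factor B and factor D feeds the alternative pathway. All of them meet at C3, whose products recruit the terminal components that form a membrane pore, while soluble and membrane-bound regulators hold the cascade back. Most plasma complement is made in the liver, and macrophages are a main source of C1q. The 31 genes comprise 6 classical pathway initiators, 2 lectin pathway proteases, 4 central components, 3 alternative pathway genes, 5 terminal pathway genes, 4 fluid-phase regulators, 4 membrane regulators and 3 anaphylatoxin receptors.

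The RNA came from whole isolated islets of 5-week-old mice fed normal chow. The 18 bulk RNA-seq libraries formed 4 groups, namely 4 male MafA S64F heterozygotes (S64F/+), 4 male wild types (WT), 5 female S64F/+ and 5 female WT libraries. MafA is a transcription factor of beta cells, S64F is a single amino acid change in it, and the study asks whether the variant, known from inherited diabetes of the young, affects male beta cells more. The labels give neither the strain nor how the allele was made, and do not say whether each library came from 1 animal, so p-values measure the spread between these libraries, which may in part be technical. Library totals lay between 19.3 M and 108.7 M counts. Levels are CPM, the counts of a gene divided by the library size, which was scaled with the TMM method. Each adjusted p is from edgeR's quasi-likelihood test, Benjamini-Hochberg adjusted over the 18364 genes tested, and a gene was called at an adjusted p under 0.05. Fold changes are log2 values ± SE, S64F/+ over WT or male over female.

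Mafa, the gene that carries the variant, stood at 197 ± 52.3 CPM in male S64F/+ and 905 ± 80.8 CPM in male WT islets (SD, n = 4 each). It was 159.7 ± 49.8 CPM in female S64F/+ and 639 ± 117 CPM in female WT islets (SD, n = 5 each), although gene counts cannot show the changed codon and so do not check the genotype labels. The islet label matched the data, as summed beta-cell markers made up 126000 to 307000 CPM in every library. Acinar markers varied widely within groups. Their sums were 3980 to 16900 CPM in male S64F/+, 2660 to 26300 in male WT, 15000 to 35800 in female S64F/+ and 10900 to 41900 CPM in female WT. The highest were in female S64F/+ replicate 3 and female WT replicate 5, and 0 of the acinar markers were called by genotype in either sex. Markers of several other cell types moved with genotype. The 12 stellate and fibroblast markers summed to 1640 to 2480 CPM in male S64F/+ against 252 to 577 CPM in male WT, and 11 of them rose, whereas the female S64F/+ sums of 309 to 1090 CPM overlapped the female WT sums of 332 to 896 CPM. The 12 macrophage markers summed to 80.7 to 108 CPM in male S64F/+ against 47.4 to 54.4 CPM in male WT, with 7 called higher and 1 lower, and to 43.7 to 117 CPM in female S64F/+ against 52.4 to 61.9 CPM in female WT, with 5 called higher and 1 lower. Endothelial markers summed to 956 to 1140 CPM in male S64F/+ against 510 to 712 CPM in male WT, and to 626 to 885 CPM in female S64F/+ against 594 to 839 CPM in female WT. Ductal markers summed to 916 to 1070 CPM in male S64F/+ against 624 to 672 CPM in male WT, and to 692 to 773 CPM in female S64F/+ against 587 to 679 CPM in female WT, apart in both sexes. Schwann-cell markers summed to 76.9 to 88.2 CPM in male S64F/+ against 33.8 to 38.0 CPM in male WT, and to 50.6 to 108 CPM in female S64F/+ against 30.8 to 47.4 CPM in female WT, again apart in both sexes. The 6 mesothelial markers summed to 35.0 to 88.5 CPM in male S64F/+ against 159 to 220.0 CPM in male WT, although their median log2 fold change was 1.26 and 1 was called higher and 1 lower, so the sum does not stand for the list. In females the 4 alpha-cell markers were all called higher and summed to 58100 to 78800 CPM in S64F/+ against 32700 to 40500 CPM in WT. So were the 4 delta-cell markers, at 6050 to 8190 CPM in female S64F/+ against 2720 to 4200 CPM in female WT. In males 3 of the 4 delta-cell markers were called higher, with overlapping sums of 3610 to 5610 CPM in S64F/+ and 2600 to 5170 CPM in WT. None of the alpha-cell markers was called in males. Of the 9 beta-cell markers, 8 were called lower in male and 7 in female S64F/+ islets. No macrophage or stellate marker was at 0 in a group. The part of these markers in the results that follow was not tested, and in bulk RNA more cells of a type and more RNA per cell cannot be told apart.

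**Figure D1:**
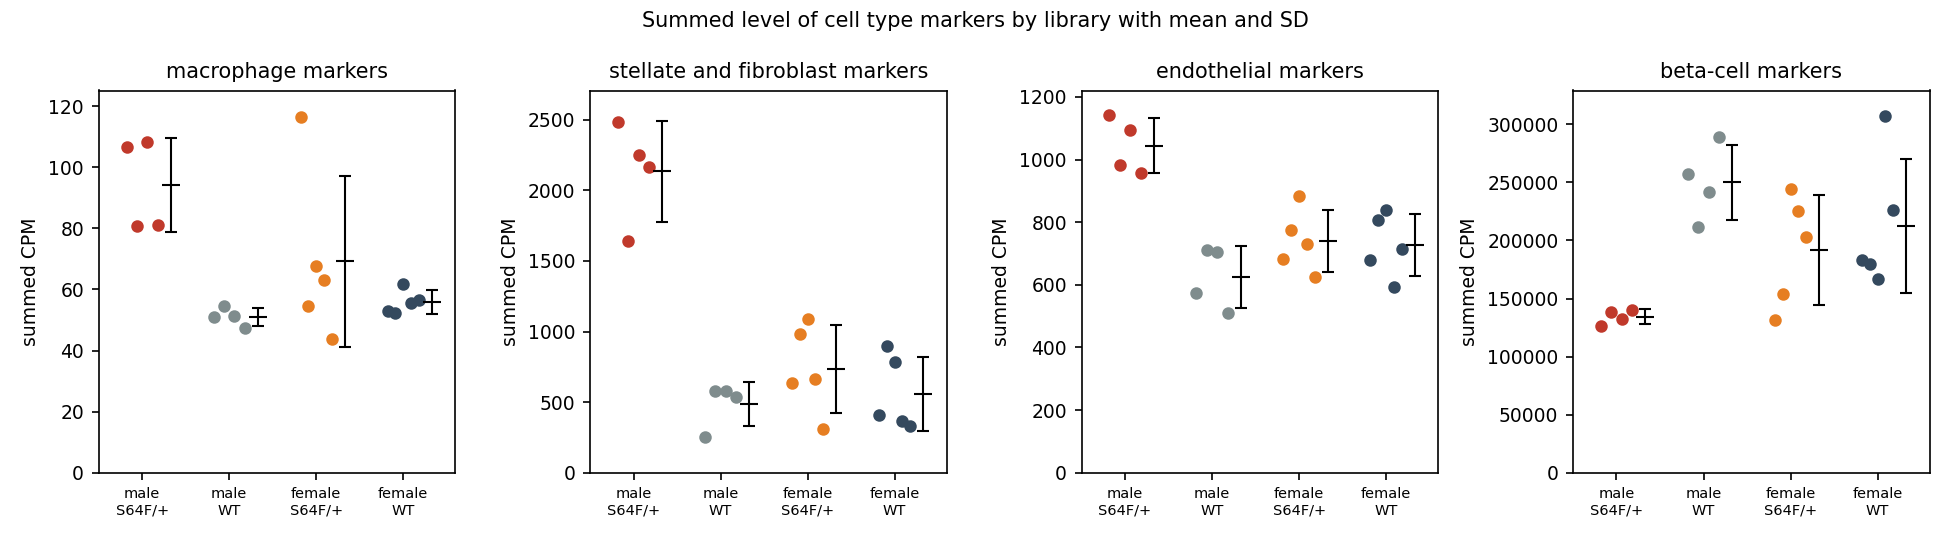
Summed CPM of 12 macrophage, 12 stellate and fibroblast, 10 endothelial and 9 beta-cell markers in each of 18 libraries (points), with the mean and SD of each group (bars). The 4 male S64F/+ libraries lie above the 4 male WT libraries for the first 3 lists and below them for beta-cell markers, while the female groups overlap in all 4 panels.

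In male islets most of the complement genes that changed were higher with the variant. Of 29 members with enough counts to test, 14 rose in male S64F/+ against male WT islets and 2 fell, while 13 did not pass. Among all genes tested, 27.6% passed in that comparison, 15.4% higher and 12.3% lower. The ranges of the libraries were apart for 15 members in the higher direction and 2 in the lower, against 17.8% and 17.3% of all genes. The median log2 fold change was 0.95 over the tested members and -0.03 over all genes. In female S64F/+ against female WT islets 5 members rose, the other 24 did not pass, and 21.2% of all genes passed, and 10.2% were higher. The ranges were apart for 4 members, all higher, against 5.28% of all genes in that direction. The female medians were 0.29 for the members and 0.02 for all genes. The other 2 members, Cfd and C9, fell below the filter on low counts and are given by their counts.

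**Figure D2:**
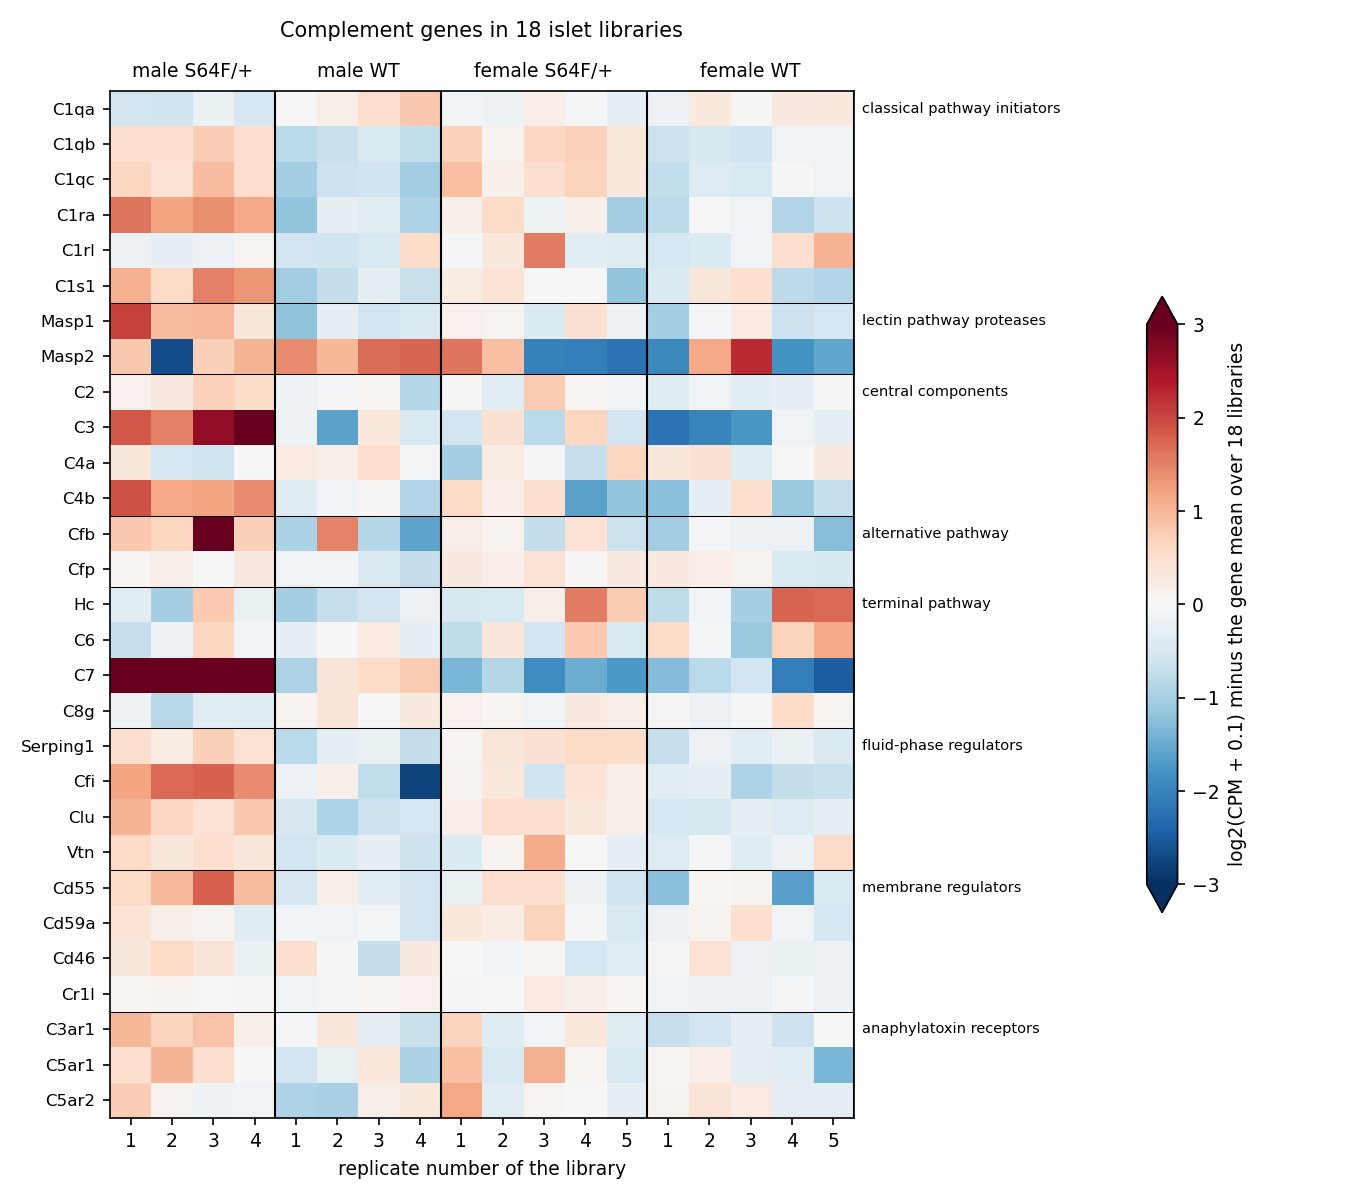
Level of each of the 29 tested complement genes (rows, grouped by role) in each of the 18 libraries (columns, grouped by sex and genotype), as log2(CPM + 0.1) minus the gene's mean over the libraries, with colours cut at 3 and -3. The 4 male S64F/+ columns are red for most classical, central and regulator genes and darkest for C7, and Masp2 has dark blue libraries in 3 of the 4 groups.

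The 3 genes of C1q, the recognition molecule of the classical pathway, did not move together. Each encodes 1 of the chains A, B and C that assemble into the same protein, and in the annotation they lie side by side on the minus strand of chromosome 4. C1qb (chr4:136880129-136886187) and C1qc (chr4:136889804-136893065) rose in S64F/+ islets of both sexes. C1qa (chr4:136895917-136898803) fell in male S64F/+ islets.

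C1qb had 19.4, 19.2, 22.7 and 19.04 CPM in male S64F/+ islets against 7.68, 8.42, 9.78 and 8.09 CPM in male WT islets, and 21.8, 14.6, 20.9, 21.97 and 16.97 CPM in female S64F/+ islets against 8.57, 9.65, 8.90, 12.6 and 12.5 CPM in female WT islets. Every S64F/+ library lay above every WT library of its sex. The log2 fold change was 1.24 ± 0.15 in males (adjusted p = 9.06e-06) and 0.88 ± 0.13 in females (adjusted p = 0.000102). C1qc gave 15.02, 12.9, 18.1 and 13.6 CPM in male S64F/+ against 4.70, 6.21, 6.32 and 4.60 CPM in male WT islets, and 17.8, 10.7, 13.5, 15.2 and 11.7 CPM in female S64F/+ against 5.66, 7.27, 6.93, 9.16 and 8.93 CPM in female WT islets. Its groups were apart in both sexes too, with log2 fold changes of 1.45 ± 0.18 in males (adjusted p = 1.5e-05) and 0.86 ± 0.16 in females (adjusted p = 0.000836).

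C1qa went the other way, with 35.2, 34.2, 44.9 and 36.5 CPM in male S64F/+ islets against 51.4, 58.2, 74.4 and 90.7 CPM in male WT islets. All 4 male S64F/+ libraries were below the lowest male WT library, and the log2 fold change was -0.86 ± 0.15 (adjusted p = 0.000383). In females it had 49.0, 46.9, 59.03, 50.3 and 43.8 CPM in S64F/+ against 46.05, 63.1, 52.6, 62.2 and 63.2 CPM in WT islets, which overlapped, and the log2 difference of -0.21 ± 0.14 did not pass (adjusted p = 0.302). The male minus female difference of this effect was -0.66 ± 0.20 and missed the threshold (adjusted p = 0.0655). It passed with DESeq2's test (adjusted p = 0.0276) and without male WT replicate 1, male WT replicate 2 or female WT replicate 4 (adjusted p = 0.0411 to 0.0478).

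Per kilobase of exon, C1qa was far more abundant than its partners in WT islets and less so with the variant. The ratio of C1qa to C1qb was 1.90, 1.87, 2.07 and 2.01 in the male S64F/+ libraries against 6.99, 7.23, 7.96 and 11.7 in the male WT libraries. It was 2.35, 3.37, 2.96, 2.39 and 2.70 in the female S64F/+ libraries against 5.62, 6.84, 6.19, 5.19 and 5.31 in the female WT libraries. The S64F/+ ratios did not reach the WT ratios in either sex. The ratio of C1qc to C1qb lay between 0.320 and 0.461 in all 18 libraries, and its groups overlapped. Among macrophage markers, Csf1r, the receptor of a macrophage growth factor, was 26.97 ± 5.22 CPM in male S64F/+ and 11.5 ± 2.05 CPM in male WT islets (SD, n = 4 each), and 17.3 ± 3.67 CPM in female S64F/+ and 14.5 ± 3.04 CPM in female WT islets (SD, n = 5 each). In females Csf1r did not pass (adjusted p = 0.297). Adgre1, which encodes the macrophage surface protein F4/80, rose in both sexes, to 6.41 ± 1.07 CPM in male S64F/+ against 3.17 ± 0.541 CPM in male WT islets (SD, n = 4 each, adjusted p = 0.00642), and to 5.74 ± 2.60 CPM in female S64F/+ against 3.27 ± 0.439 CPM in female WT islets (SD, n = 5 each, adjusted p = 0.0151). The part of these markers in the C1q values was not tested.

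**Figure D3:**
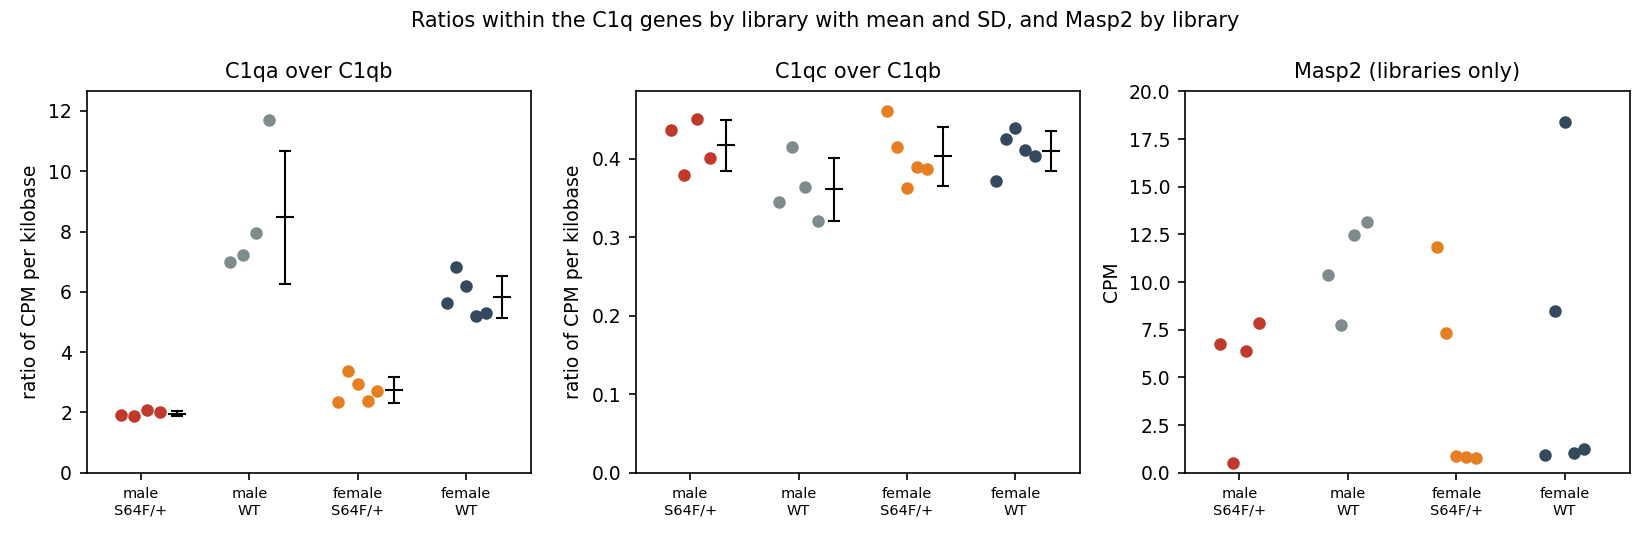
Ratio of C1qa to C1qb and of C1qc to C1qb, each from CPM per kilobase of exon, by library with group mean and SD, and Masp2 in CPM by library without a mean. The C1qa ratio is 1.87 to 2.07 in male S64F/+ and 6.99 to 11.7 in male WT libraries, the C1qc ratio overlaps between groups, and Masp2 is near 1 CPM in 7 libraries of 3 groups.

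Because C1qb and C1qc rose together in both sexes, the 250 bases before their RefSeq start sites are shown (GRCm38.p6, both on the minus strand, written 5′ to 3′ on the gene's strand). The C1qb window is chr4:136886201-136886450 and the C1qc window is chr4:136892915-136893164. In GENCODE the C1qc gene starts at position 136893065, inside that window, so part of the window lies within the gene as annotated there. Capitals mark the letters TGCTGA, a core of MAF recognition elements, and GAGGAA, the core bound by the macrophage factor PU.1, or their reverse complements.
C1qb: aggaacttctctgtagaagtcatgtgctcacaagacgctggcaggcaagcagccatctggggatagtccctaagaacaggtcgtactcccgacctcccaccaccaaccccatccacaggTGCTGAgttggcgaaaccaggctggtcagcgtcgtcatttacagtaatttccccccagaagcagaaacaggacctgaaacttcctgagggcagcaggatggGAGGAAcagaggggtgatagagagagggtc
C1qc: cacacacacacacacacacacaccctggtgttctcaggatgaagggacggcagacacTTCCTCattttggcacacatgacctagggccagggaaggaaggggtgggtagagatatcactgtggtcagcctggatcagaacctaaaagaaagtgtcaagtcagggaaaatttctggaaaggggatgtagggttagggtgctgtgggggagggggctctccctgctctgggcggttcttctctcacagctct
TGCTGA occurred in the C1qb window at 131 to 126 bases before the start site, and GAGGAA at 30 to 25 bases. The C1qc window held GAGGAA on the opposite strand at 193 to 188 bases. On either strand, TGCTGA occurs in 16.1% and GAGGAA in 23.3% of 32851 promoter windows of this length, so a match describes the letters and not a bound site. RefSeq promoter windows were found for 22 of the 31 members, 8 of which held TGCTGA (C1qb, C1rl, C3, C3ar1, C5ar1, C7, Cd46 and Cd55) and 4 GAGGAA (C1qb, C1qc, C5ar2 and Cd59a). C1qa was among the members with no window in that table.

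The proteases that C1q carries rose in male S64F/+ islets. C1ra, the mouse gene of the protease C1r, had 13.3, 9.82, 11.5 and 9.63 CPM in male S64F/+ against 1.82, 3.61, 3.43 and 2.20 CPM in male WT islets, a log2 fold change of 1.99 ± 0.30 (adjusted p = 8.69e-05). In females its 4.84, 6.48, 3.86, 4.77 and 2.11 CPM in S64F/+ islets overlapped the 2.46, 4.26, 3.98, 2.30 and 2.72 CPM in WT islets (log2 difference 0.49 ± 0.26, adjusted p = 0.197, and 0.0487 without female S64F/+ replicate 5). The male S64F/+ libraries were thus above all 14 others. C1s1, which encodes C1s, the protease that cuts C4 and C2, had 28.2, 19.98, 38.4 and 33.4 CPM in male S64F/+ against 6.41, 8.11, 10.9 and 8.36 CPM in male WT islets, a log2 fold change of 1.82 ± 0.35 (adjusted p = 0.00114). It had 15.6, 17.8, 13.5, 13.4 and 5.84 CPM in female S64F/+ against 9.99, 16.9, 18.9, 7.65 and 7.20 CPM in female WT islets, with a log2 difference of 0.12 ± 0.31 (adjusted p = 0.823). Here too each male S64F/+ library was above all libraries of the other groups. C1rl, a C1r-like protease gene next to C1ra on chromosome 6, ranged from 1.20 to 5.73 CPM over all libraries and passed in neither sex (adjusted p = 0.927 in males and 0.776 in females).

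The lectin pathway proteases split. Masp1, whose protease activates MASP-2, had 14.1, 6.39, 6.59 and 4.25 CPM in male S64F/+ against 1.38, 2.77, 2.26 and 2.43 CPM in male WT islets. The groups were apart, with 1 male S64F/+ library well above the other 3, and the log2 fold change was 1.81 ± 0.34 (adjusted p = 0.000681), or 1.37 without that library. In females the values were 3.46 ± 0.802 CPM in S64F/+ and 2.67 ± 0.951 CPM in WT islets (SD, n = 5 each), and the difference did not pass (adjusted p = 0.389).

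Masp2, the protease that cuts C4 and C2 in the lectin pathway, was uneven within groups. It had 6.76, 0.525, 6.39 and 7.85 CPM in male S64F/+ against 10.4, 7.77, 12.5 and 13.1 CPM in male WT islets, and 11.8, 7.32, 0.872, 0.846 and 0.751 CPM in female S64F/+ against 0.936, 8.50, 18.4, 1.042 and 1.23 CPM in female WT islets. The libraries fell into separate sets, 11 at 6.39 to 18.4 CPM and 7 at 0.525 to 1.23 CPM, and the low set held 1 of 4 male S64F/+, 3 of 5 female S64F/+ and 3 of 5 female WT libraries. Neither genotype contrast passed (adjusted p = 0.54 in males and 0.793 in females). Of its exonic bases, 54.9% overlap Tardbp on the opposite strand, a gene at a mean of 165 CPM, and since the strand setting is not given, reads of this pair cannot be told apart. Of the 20 genes whose log2(CPM + 0.1) followed Masp2 most closely over the 18 libraries by Pearson's r of either sign, 8 lie on chromosome 4 like Masp2 itself (chr4:148602554-148615499), against 6.23% of the 15916 genes compared. The closest of all were Gm4735 (r = 0.983) and Eno1b (r = 0.978), both on other chromosomes, and the closest on chromosome 4 were the zinc finger genes Zfp990 (r = 0.972) and Zfp985 (r = 0.958), and points in this comparison share library and depth. The Masp2 values are in the plot of C1q ratios.

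C3, on which all pathways meet, showed the widest spread in level among the central components. It had 110.4, 86.6, 191 and 240.5 CPM in male S64F/+ islets against 27.2, 9.89, 37.6 and 22.6 CPM in male WT islets. All male S64F/+ libraries were above every WT library and varied widely among themselves, and the log2 fold change was 2.70 ± 0.58 (adjusted p = 0.00306). In females it had 20.6, 41.7, 17.3, 47.4 and 20.4 CPM in S64F/+ islets against 6.46, 7.63, 8.98, 28.3 and 25.03 CPM in WT islets. These overlapped, with a log2 difference of 0.95 ± 0.50 that did not pass (adjusted p = 0.197). The male minus female difference was 1.74 ± 0.75 (adjusted p = 0.169), which does not show that the effects differ, nor that they are alike.

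Mice carry a pair of near-identical C4 genes on chromosome 17. C4b (chr17:34728380-34743882) encodes complement C4, which joins C2 in the classical C3 convertase, and C4a (chr17:34809092-34823464), annotated in GENCODE as a processed transcript, is the gene of the mouse sex-limited protein. C4b had 38.7, 23.04, 23.6 and 27.6 CPM in male S64F/+ against 8.02, 9.65, 10.5 and 5.55 CPM in male WT islets, with a log2 fold change of 1.74 ± 0.47 (adjusted p = 0.0121). In females C4b had 15.4, 11.9, 14.4, 3.31 and 4.47 CPM in S64F/+ against 4.26, 8.44, 14.3, 4.71 and 6.28 CPM in WT islets (log2 difference 0.39 ± 0.42, adjusted p = 0.564). The male groups were apart and the female groups overlapped.

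C4a had 6.85, 3.77, 3.51 and 5.40 CPM in male S64F/+ against 6.36, 6.11, 7.68 and 5.17 CPM in male WT islets, and its log2 difference of -0.37 ± 0.30 did not pass (adjusted p = 0.399), nor did that of -0.24 ± 0.27 in females (adjusted p = 0.586). The per-kilobase ratio of C4b to C4a was 6.16, 6.66, 7.34 and 5.57 in male S64F/+ libraries against 1.37, 1.72, 1.49 and 1.17 in male WT libraries. In females it was 6.40, 2.05, 3.07, 1.09 and 0.577 in S64F/+ libraries against 0.677, 1.24, 3.75, 0.964 and 1.05 in WT libraries. The male ratios were apart and the female ratios overlapped, with a single female S64F/+ library at the male S64F/+ level.

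How far the pair can be separated depends on where they differ, so the stretch of coding sequence with the most differences is shown from the GENCODE M21 transcripts on chromosome 17, minus strand. It spans positions 2761 to 2820 of transcript C4b-201, counted from its 5′ end, and capitals mark the 13 bases of 60 that differ.
C4b-201: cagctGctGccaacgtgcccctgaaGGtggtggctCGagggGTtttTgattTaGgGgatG
C4a-207: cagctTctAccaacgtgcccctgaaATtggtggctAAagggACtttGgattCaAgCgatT
Over 5367 aligned bases the transcripts were 96.1% identical, and the longest run without a difference was 433 bases. Of all 150-base windows of C4b-201, the read length in the labels, 8.26% also occur in C4a-207. How the authors treated reads that match both genes is not given in the sources used here, so single values of either are uncertain.

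C2, the protease of the classical C3 convertase, had 1.81, 2.04, 2.76 and 2.47 CPM in male S64F/+ against 1.49, 1.59, 1.73 and 0.874 CPM in male WT islets. The groups were apart, yet the log2 difference of 0.67 ± 0.25 just missed the threshold (adjusted p = 0.0539) and passed with DESeq2's test (adjusted p = 0.0281), with library-size scaling (0.014), with DESeq2's size factors (0.0479), and without male S64F/+ replicate 1 or female S64F/+ replicate 2 or 3. In females C2 was 1.84 ± 0.617 CPM in S64F/+ and 1.41 ± 0.144 CPM in WT islets (SD, n = 5 each, adjusted p = 0.249). Of its exonic bases 42.8% are shared with Gm20547 on the same strand, a read-through gene listed at 0 counts. How reads there were counted is not given in the sources used here, so the level of C2 is uncertain.

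Neither alternative pathway gene that could be tested passed in either sex in the fit over all libraries, although in males each passed under alternatives given beside its values. In males both had an unadjusted p under 0.05, as had 6978 of the 18364 genes tested. In females 0 of the 2 had an unadjusted p under 0.05, against 6264 of all genes. With shares that large, a count over 2 genes does not single out this arm. Cfb, factor B, the protease of the alternative C3 convertase, had 0.428, 0.371, 2.47 and 0.391 CPM in male S64F/+ against 0.0553, 0.746, 0.0665 and 0 CPM in male WT islets. Each male group holds 1 library far above its others, and the log2 difference of 1.90 ± 0.87 (adjusted p = 0.115) became 0.70 without the high S64F/+ library and 4.42 without the high WT library, where the adjusted p was 0.00446. Of its exonic bases 79.5% are shared with Gm20547 on the same strand, and how reads there were counted is not given in the sources used here, so its level is uncertain. In females Cfb was 0.188 ± 0.0975 CPM in S64F/+ and 0.118 ± 0.0776 CPM in WT islets (SD, n = 5 each, adjusted p = 0.595). Cfp, properdin, which stabilises that convertase, had 8.56, 9.02, 8.27 and 9.85 CPM in male S64F/+ against 7.52, 7.75, 5.99 and 4.90 CPM in male WT islets. Those groups were apart, with a log2 difference of 0.45 ± 0.18 (adjusted p = 0.066) that passed with library-size scaling (0.0263), with DESeq2's test (0.0385), with males alone (0.0424), and without male WT replicate 2 (0.043) or female WT replicate 4 or 5. The female difference was 0.28 ± 0.16 (adjusted p = 0.212). Cfd, factor D or adipsin, which cuts factor B and is known as a product of fat cells, had 0 counts in all 18 libraries. Taking 3 counts over all libraries as the limit for a count of 0, that allows a level of up to 0.0038 CPM, by counting error alone.

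Among the terminal members C7 rose in male S64F/+ islets and was low elsewhere. C7 encodes a component that anchors the growing pore in the membrane. It had 10.4, 10.04, 8.66 and 6.58 CPM in male S64F/+ islets against 0.332, 0.962, 1.10 and 1.29 CPM in male WT islets. In females it had 0.215, 0.353, 0.125, 0.192 and 0.147 CPM in S64F/+ islets against 0.234, 0.369, 0.451, 0.0947 and 0.0472 CPM in WT islets. Every male S64F/+ library was above every library of the other 3 groups, and no female library reached 1 CPM. The male log2 fold change was 3.24 ± 0.44, a 9.48-fold higher level (adjusted p = 3.12e-05), while the female difference of -0.22 ± 0.46 did not pass (adjusted p = 0.782). These levels rest on 1747 counts in male S64F/+, 113 in male WT, 39 in female S64F/+ and 68 in female WT islets.

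The stellate and fibroblast markers were also higher in male S64F/+ islets. Within groups C7 followed their sums in some libraries and not in others. In female WT replicates 1 to 5 the sums were 409, 895.7, 784, 367 and 332 CPM. C7 there was 0.234, 0.369, 0.451, 0.0947 and 0.0472 CPM in the same order. In female S64F/+ replicates 1 to 5 the sums were 633, 985.6, 1092, 661 and 309 CPM. There C7 was 0.215, 0.353, 0.125, 0.192 and 0.147 CPM in the same order. In male WT libraries the sums were 252 to 577 CPM and C7 was 0.332 to 1.29 CPM, each lowest in replicate 1. Pdgfra, a growth factor receptor of fibroblasts, was 12.9 ± 4.14 CPM in male S64F/+ and 1.69 ± 0.864 CPM in male WT islets (SD, n = 4 each), with a log2 fold change of 2.91 ± 0.77 (adjusted p = 0.0103). In female islets it was 2.82 ± 1.70 CPM in S64F/+ and 2.10 ± 1.74 CPM in WT (SD, n = 5 each, adjusted p = 0.7). Col1a1, a fibrillar collagen chain, was 439 ± 85.7 CPM in male S64F/+ and 64.7 ± 28.1 CPM in male WT islets (SD, n = 4 each). The part of these markers in the C7 values was not tested.

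The windows before the start sites of C3 and C7 are shown because these members had the largest male log2 fold changes of the 29 (RefSeq, GRCm38.p6, minus strand, 5′ to 3′). They are chr17:57228137-57228386 and chr15:5063774-5064023. Capitals mark TGCTGA, the C/EBP letters TTGCNNAA of an acute-phase factor family, and the STAT letters TTCNNNGAA, or their reverse complements.
C3: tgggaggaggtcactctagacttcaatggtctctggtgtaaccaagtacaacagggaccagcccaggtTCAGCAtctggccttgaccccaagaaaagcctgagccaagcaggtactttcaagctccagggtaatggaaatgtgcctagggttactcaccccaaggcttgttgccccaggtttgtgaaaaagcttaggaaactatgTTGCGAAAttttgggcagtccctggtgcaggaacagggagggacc
C7: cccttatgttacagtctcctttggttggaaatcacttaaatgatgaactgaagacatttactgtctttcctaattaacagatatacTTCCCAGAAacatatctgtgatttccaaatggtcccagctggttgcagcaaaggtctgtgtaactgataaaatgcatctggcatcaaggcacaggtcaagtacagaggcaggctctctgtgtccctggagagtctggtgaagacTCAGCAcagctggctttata
The C3 window held TGCTGA on the opposite strand 182 to 177 bases before the start site and TTGCGAAA 45 to 38 bases before it. The C7 window held TGCTGA on the opposite strand 20 to 15 bases before the start site and TTCCCAGAA 164 to 156 bases before it. TTGCNNAA occurs in 9.56% and TTCNNNGAA in 7.02% of the 32851 windows, either strand counted, and in 5 and 2 of the 22 members found. The AP-1 letters TGANTCA occur in 6.75% of windows and in 2 members, C3ar1 and C8g. No motif searched overlapped another in the windows shown.

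The remaining terminal members were low or went the other way, and C8b, which is not a member, is given with the other genes of the pathway. C8g, the lipocalin-like gamma chain of C8, had 3.08, 1.88, 2.74 and 2.64 CPM in male S64F/+ against 3.70, 4.57, 3.49 and 4.18 CPM in male WT islets, and fell by 0.62 on the log2 scale (adjusted p = 0.0174). The male groups were apart, but scaling by library size alone gave -0.40 and an adjusted p of 0.117, and the call was also lost without male S64F/+ replicate 2 (adjusted p = 0.0631) or male WT replicate 2. In females C8g was 3.72 ± 0.386 CPM in S64F/+ and 3.71 ± 0.827 CPM in WT islets (SD, n = 5 each, adjusted p = 0.985). Hc, the mouse gene of C5, was 0 to 0.243 CPM in male S64F/+, 0 to 0.0760 CPM in male WT, 0.0430 to 0.481 CPM in female S64F/+ and 0 to 0.568 CPM in female WT libraries. C6, which binds C5b, was 0.143 to 0.507 CPM in male S64F/+, 0.221 to 0.366 CPM in male WT, 0.129 to 0.577 CPM in female S64F/+ and 0.0820 to 0.756 CPM in female WT libraries. Neither passed in either sex, the smallest adjusted p being 0.449 for C6 in females. C9, which polymerises into the pore, had 2 counts in male S64F/+, 0 in male WT, 27 in female S64F/+ and 32 in female WT islets, and the count of 0 allows up to 0.0247 CPM. Only 6 libraries held a C9 count. The female ones were S64F/+ replicates 4 and 5 (0.327 and 0.183 CPM) and WT replicates 2, 4 and 5 (0.044, 0.166 and 0.52 CPM).

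The 4 fluid-phase regulators all rose in male S64F/+ islets. Clu, clusterin, a secreted chaperone that binds terminal complexes, had 546.5, 413, 364 and 473 CPM in male S64F/+ against 194, 142, 172 and 191 CPM in male WT islets, and 308, 390.4, 376, 337 and 299 CPM in female S64F/+ against 187, 192, 221, 205 and 221 CPM in female WT islets. The genotypes were apart in each sex, with log2 fold changes of 1.37 ± 0.13 in males (adjusted p = 6.36e-07) and 0.74 ± 0.11 in females (adjusted p = 0.000139). Serping1, the C1 inhibitor that inactivates C1r and C1s, had 93.6, 78.05, 109 and 90.1 CPM in male S64F/+ against 37.98, 55.8, 57.5 and 40.6 CPM in male WT islets, and 70.4, 86.9, 91.7, 100.4 and 98.8 CPM in female S64F/+ against 41.1, 59.4, 52.8, 58.6 and 49.6 CPM in female WT islets. Its log2 fold changes were 0.95 ± 0.15 in males (adjusted p = 0.000147) and 0.78 ± 0.13 in females (adjusted p = 0.000427), again without overlap between genotypes.

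Cfi, factor I, the protease that cuts C3b and C4b, had 4.95, 7.17, 7.52 and 5.84 CPM in male S64F/+ against 1.88, 2.38, 1.23 and 0.228 CPM in male WT islets, and 2.30, 2.69, 1.37, 2.86 and 2.44 CPM in female S64F/+ against 1.66, 1.71, 1.07, 1.25 and 1.30 CPM in female WT islets. The male groups were apart, with a log2 fold change of 2.15 ± 0.41 (adjusted p = 0.000678), while the female difference of 0.73 ± 0.35 did not pass (adjusted p = 0.151) but did with females alone (0.0496) and without male WT replicate 4 (0.0265). Vtn, vitronectin, which keeps soluble terminal complexes out of membranes, had 19.6, 16.6, 18.2 and 16.6 CPM in male S64F/+ against 8.73, 9.74, 11.04 and 8.51 CPM in male WT islets, a log2 fold change of 0.90 ± 0.28 (adjusted p = 0.0208). Its call was lost without any 1 of 3 male libraries, S64F/+ replicate 1, WT replicate 1 or WT replicate 4, where the adjusted p reached 0.0613. In females Vtn was 9.77 to 28.2 CPM in S64F/+ and 9.90 to 19.6 CPM in WT islets and did not pass (adjusted p = 0.521).

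**Figure D4:**
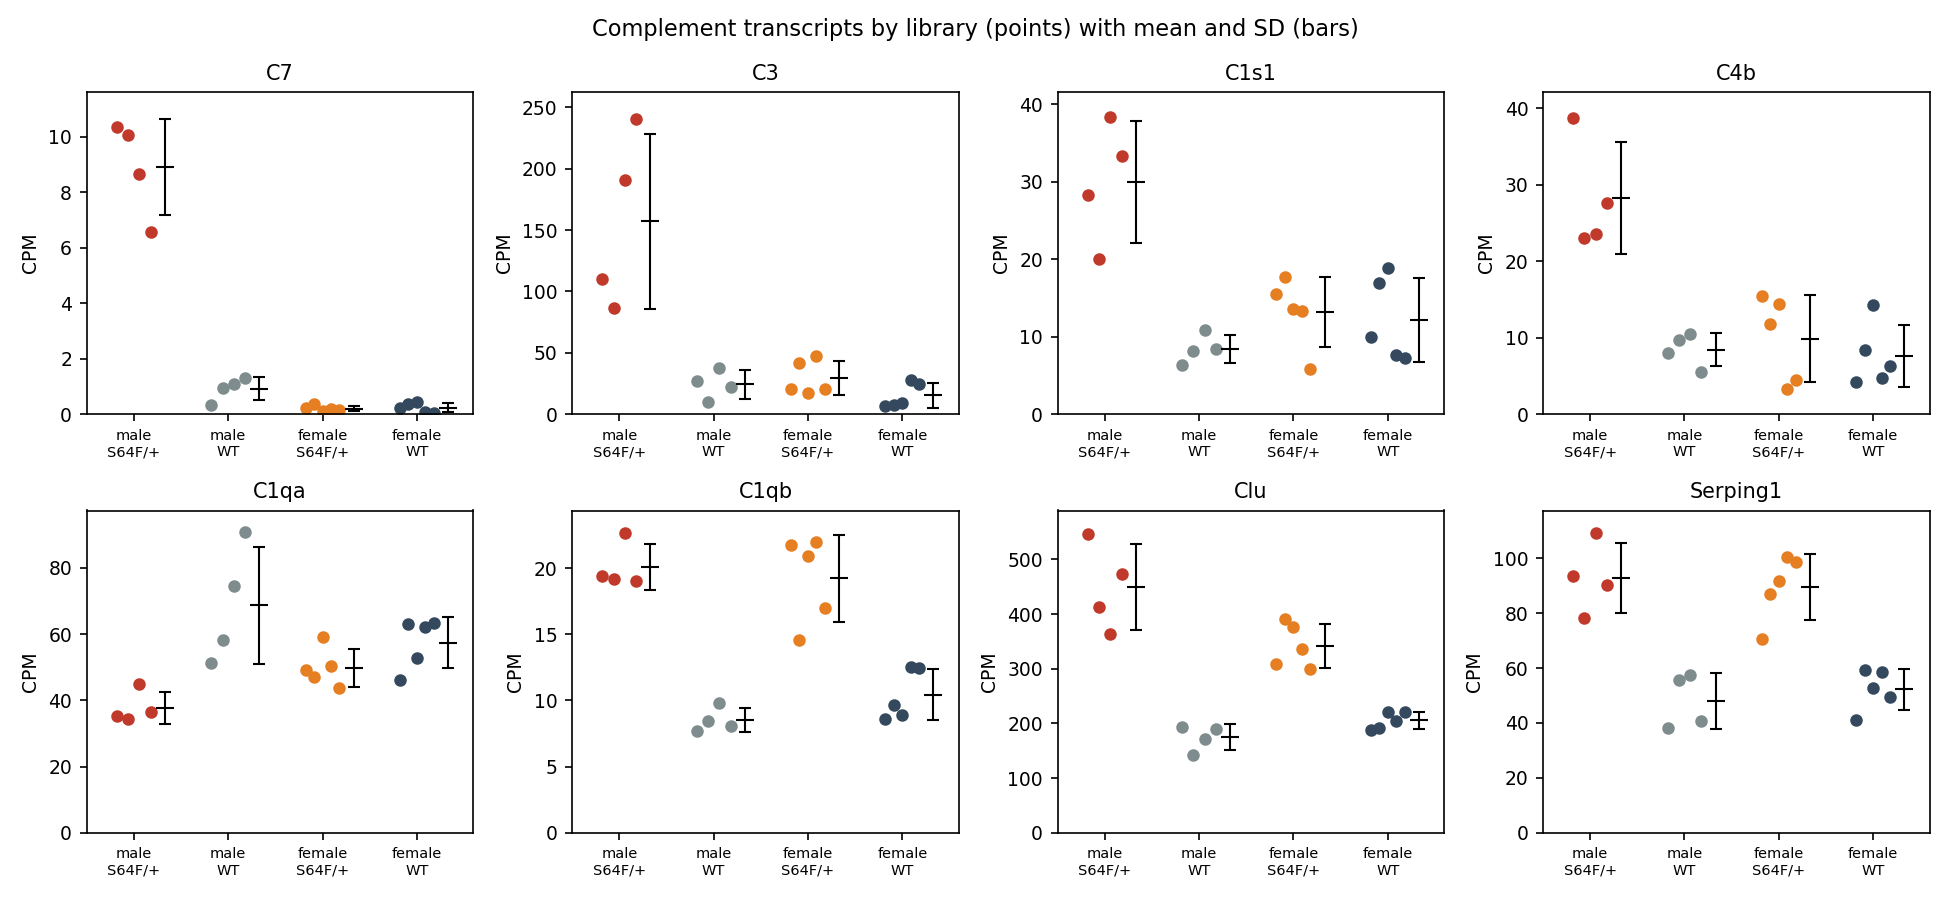
CPM of 8 complement genes in each library (points) with the group mean and SD (bars). C7 reaches 6.58 to 10.4 CPM in male S64F/+ libraries and at most 1.29 CPM in the others, C1qa is lower in male S64F/+ than in male WT islets, and C1qb, Clu and Serping1 separate the genotypes in both sexes.

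Of the 4 membrane regulators, Cd55 was called higher in males and Cr1l in females. The male minus female difference passed for neither, at 0.85 ± 0.51 for Cd55 (adjusted p = 0.313) and -0.15 ± 0.097 for Cr1l (adjusted p = 0.351). So neither is shown to differ between the sexes. Cd55, decay-accelerating factor, which takes C3 convertases apart, had 4.12, 5.41, 9.47 and 5.26 CPM in male S64F/+ against 1.88, 3.06, 2.13 and 1.78 CPM in male WT islets, a log2 fold change of 1.44 ± 0.38 (adjusted p = 0.00861). In females Cd55 was 1.74 to 3.95 CPM in S64F/+ and 0.805 to 2.91 CPM in WT islets, which overlapped (adjusted p = 0.237). Cr1l, which encodes Crry, the rodent cofactor for factor I, had 51.4, 53.9, 62.8, 58.7 and 55.6 CPM in female S64F/+ against 49.4, 48.2, 47.4, 52.3 and 47.5 CPM in female WT islets, and rose by 0.21 ± 0.065 on the log2 scale with overlapping groups (adjusted p = 0.0287). That small call was lost without any 1 of 6 female libraries, S64F/+ replicates 3 and 4 or WT replicates 1, 2, 3 and 5 (adjusted p up to 0.0748), and with the replicate number as a block (adjusted p = 0.0547). In males Cr1l was 55.3 ± 1.83 CPM in S64F/+ and 53.2 ± 4.51 CPM in WT islets (SD, n = 4 each, adjusted p = 0.622), and scaling by library size alone called it higher (adjusted p = 0.00551).

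Cd59a, which blocks the entry of C9 into the pore, was 9.17 to 15.7 CPM in male S64F/+, 7.83 to 11.3 CPM in male WT, 8.57 to 18.9 CPM in female S64F/+ and 8.29 to 16.6 CPM in female WT libraries, and passed in neither sex. Cd46, a cofactor for factor I that in mice is best known from testis, was 1.71 to 2.996 CPM in male S64F/+, 1.16 to 2.76 CPM in male WT, 1.33 to 2.04 CPM in female S64F/+ and 1.71 to 2.71 CPM in female WT libraries, and did not pass either. Part of its exons, 14.2%, overlaps A330023F24Rik on the opposite strand, at a mean of 19.2 CPM.

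Of the anaphylatoxin receptors, C3ar1, the C3a receptor, had 2.74, 2.16, 2.49 and 1.52 CPM in male S64F/+ against 1.27, 1.71, 1.06 and 0.798 CPM in male WT islets. The ranges overlapped, and the log2 fold change of 0.87 ± 0.30 passed (adjusted p = 0.034) but not without any 1 of 6 male libraries, S64F/+ replicates 1, 2 and 3 or WT replicates 1, 3 and 4 (adjusted p up to 0.114), nor without the filter (0.0575). In females C3ar1 was 1.008 to 2.17 CPM in S64F/+ and 0.792 to 1.35 CPM in WT islets (adjusted p = 0.144). C5ar1, the C5a receptor, was 0.722 ± 0.242 CPM in male S64F/+ and 0.362 ± 0.176 CPM in male WT islets (SD, n = 4 each, adjusted p = 0.162). In females C5ar1 was 0.629 ± 0.362 CPM in S64F/+ and 0.375 ± 0.164 CPM in WT islets (SD, n = 5 each, adjusted p = 0.259). C5ar2, the second receptor for C5a, stayed between 0.0481 and 0.560 CPM over all libraries and did not pass (adjusted p = 0.445 in males and 0.715 in females).

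**Figure D5:**
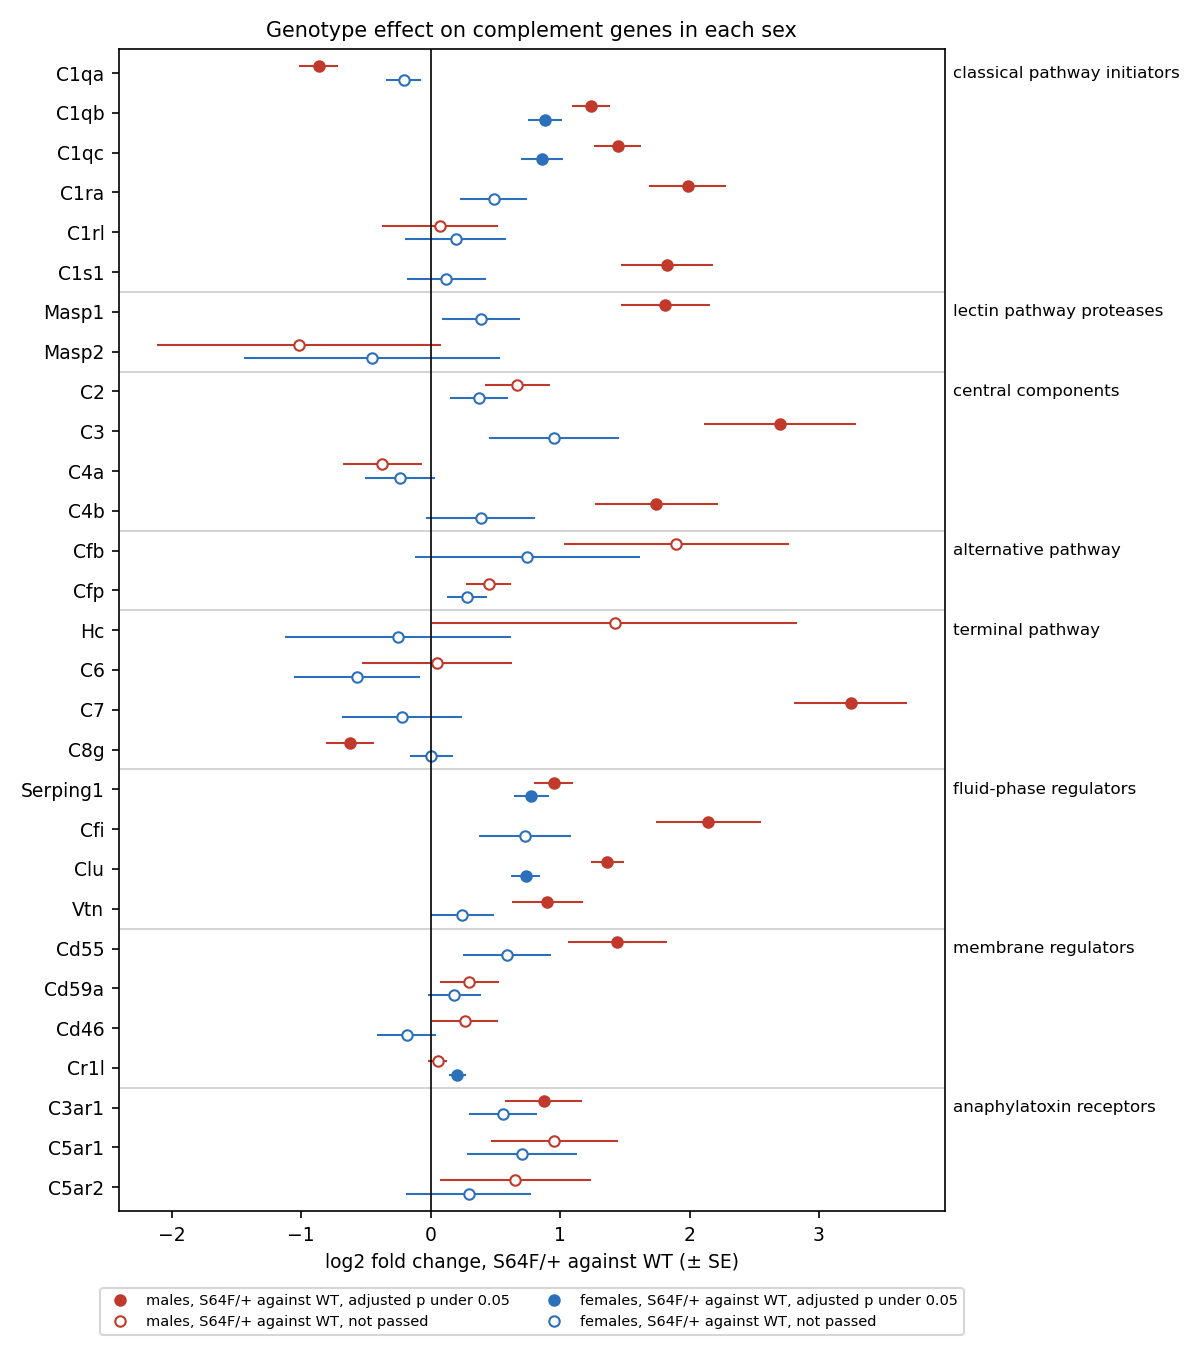
Log2 fold change ± SE of each tested complement gene, S64F/+ against WT, in males (red, upper point of each pair) and females (blue, lower point), grouped by role, with filled points at an adjusted p under 0.05. Male points reach 3.24 for C7, most male estimates lie right of the female ones, and C1qa is the lowest called point at -0.86.

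Set side by side per kilobase of exon, the supply of complement transcripts was uneven across the cascade. In male S64F/+ islets the order of means was Clu at 131 ± 22.9, Serping1 at 39.9 ± 5.54, C1qa at 36.3 ± 4.69, C3 at 30.6 ± 13.9 and C1qb at 18.4 ± 1.59 CPM per kilobase (SD, n = 4), where Serping1, C1qa and C3 lay within each other's spread. In male WT islets C1qa led at 66.03 ± 16.9 CPM per kilobase, followed by Clu at 50.7 ± 6.96, Serping1 at 20.6 ± 4.34, C1qb at 7.81 ± 0.835 and Cd59a at 5.69 ± 0.918 (SD, n = 4), the first pair overlapping. In female islets Clu had the highest mean in both genotypes, at 99.5 ± 11.7 in S64F/+ and 59.8 ± 4.65 CPM per kilobase in WT, and C1qa after it at 47.9 ± 5.50 in S64F/+ and 55.2 ± 7.47 CPM per kilobase in WT (SD, n = 5 each), and in female WT islets the pair overlapped. This order depends on the length used. The authors' lengths, which for all 30 members that have one equal the exon lengths added over all transcripts and so count shared exons repeatedly, are 7995 bases for Clu against 3437 merged bases, and 1040 by both measures for C1qa. With them Clu led in male S64F/+ islets only, at 56.2 ± 9.85 against 36.3 ± 4.69 CPM per kilobase for C1qa (SD, n = 4), and C1qa led in the other 3 groups. A length scales every library alike, so it does not alter a comparison of 1 gene between groups. Of the summed level of all 31 members, Clu made up 40.4% in male S64F/+, 27.0% in male WT, 38.4% in female S64F/+ and 31.3% in female WT islets, or 28.1%, 16.4%, 26.05% and 19.9% in the same order with the authors' lengths. The terminal genes among the members together came to 4.31 to 5.995 in male S64F/+ against 2.67 to 3.51 CPM per kilobase in male WT libraries. In males they were mostly C7 and C8g, since Hc, C6 and C9 were each under 0.2 CPM per kilobase on average in every group. In females C7 was under 0.2 as well, at 0.0771 in S64F/+ and 0.0894 CPM per kilobase in WT. C8g was at 2.49 CPM per kilobase in both female groups. C8b, the beta chain of C8, is not a member and is not in these sums. It had 165 ± 18.6 CPM in male S64F/+ and 69.03 ± 9.40 CPM in male WT islets (SD, n = 4 each). The central components summed to 22.0 to 53.1 in male S64F/+ against 5.01 to 10.8 CPM per kilobase in male WT libraries, and to 6.51 to 11.6 in female S64F/+ against 3.44 to 7.54 CPM per kilobase in female WT libraries.

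Whether the variant acted differently by sex was tested by the male minus female difference of the genotype effects. Of the 29 tested members 4 passed, all with the larger effect in males, while 4.47% of all genes passed and 2.87% did so in that direction. They were C7 (difference 3.47 ± 0.63, adjusted p = 0.00942), C1s1 (1.70 ± 0.47, adjusted p = 0.0484), C1ra (1.499 ± 0.39, adjusted p = 0.0401) and Clu (0.63 ± 0.17, adjusted p = 0.0432). C7 passed in every leave-one-out fit and every other alternative, whereas C1ra was lost without 12, C1s1 without 14 and Clu without 12 of the 18 libraries left out in turn. The adjusted p reached 0.0957 for C1ra and 0.102 for C1s1 without male WT replicate 4, and 0.0965 for Clu without male S64F/+ replicate 1. With DESeq2's test 7 members passed, adding C1qa, Masp1 and Cfi. The median difference was 0.45 over the tested members and 0.01 over all genes.

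Between the sexes within a genotype, C7 alone passed in WT islets, higher in male WT than in female WT islets by 1.99 ± 0.44 (adjusted p = 0.0232), where 2.36% of all genes passed, 1.73% higher in males. It was lost without male WT replicate 3, male WT replicate 4 (adjusted p = 0.105) or female WT replicate 1. In S64F/+ islets 9 members were higher in males than in females and 1, C8g, was lower, while 16.1% of all genes passed, 8.00% higher and 8.12% lower. The 9 were C7 (5.46 ± 0.46), C3 (2.42 ± 0.53), C4b (1.52 ± 0.44), Cfi (1.44 ± 0.36), C1ra (1.33 ± 0.27), C1s1 (1.19 ± 0.32), Masp1 (1.18 ± 0.31), Cd55 (1.09 ± 0.35) and Clu (0.39 ± 0.12). The 10 calls became 5 without male S64F/+ replicate 4 and 6 without male S64F/+ replicate 1, female S64F/+ replicate 4 or female S64F/+ replicate 5, and C8g (adjusted p = 0.0495) did not hold in 15 of the 18. Cd55 was lost in 8 of them (adjusted p up to 0.163) and without the filter (0.0585), C4b in 4 (up to 0.0836) and without the filter (0.0583), Clu in 4 (up to 0.127), C1s1 in 2 and Masp1 in 1. The genotype and sex comparisons share libraries, so their values are given side by side and not as separate evidence.

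Other genes of the pathway, a list of 38 symbols drawn up from textbook knowledge, gave 24 genes with enough counts to test. The list was chosen with earlier results of these data known, so its counts are a description. In male S64F/+ against male WT islets 12 of the 24 rose and 0 fell, where 15.4% of all genes rose, and the median log2 fold change was 1.41 over the list and -0.03 over all genes. C8b, the beta chain of C8, rose in both sexes without overlap, to 165 ± 18.6 CPM in male S64F/+ against 69.03 ± 9.40 CPM in male WT islets (SD, n = 4 each, log2 fold change 1.25 ± 0.13). It stood at 188 ± 20.9 CPM in female S64F/+ against 59.7 ± 9.38 CPM in female WT islets (SD, n = 5 each, log2 fold change 1.66 ± 0.12, adjusted p = 4.24e-08). Its partner chain C8g fell in males, as given above.

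Receptor genes were among the 12 that rose in males. Itgax and Itgb2, which encode the chains of complement receptor 4, had log2 fold changes of 2.55 ± 0.24 and 1.96 ± 0.29 in males (adjusted p = 7.23e-07 and 8.64e-05). In females they were 1.01 ± 0.21 and 0.90 ± 0.26 (adjusted p = 0.0019 and 0.0169), and the Itgb2 call was lost with females alone (0.0601). Cd93, once described as a receptor for C1q, rose by 0.91 ± 0.13 in males (adjusted p = 5.13e-05) and had a female difference of -0.12 ± 0.12 (adjusted p = 0.5). Thbd, thrombomodulin, and Lrp1, a scavenger receptor, rose by 0.81 ± 0.14 and 1.20 ± 0.19 in males. Crp, the pentraxin C-reactive protein, had 4.58, 2.29, 2.31 and 3.06 CPM in male S64F/+ against 0.166, 0.313, 0.299 and 0.380 CPM in male WT islets, a log2 fold change of 3.36 ± 0.53 (adjusted p = 0.000151). In females Crp was 0.452 to 2.54 CPM in S64F/+ and 0.630 to 2.24 CPM in WT islets (adjusted p = 0.436).

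In females 4 genes of the list rose and 1 fell, a share of the 24 close to the 21.2% of all genes that passed, and the median log2 fold change was 0.34 over the list and 0.02 over all genes. Besides C8b, Itgax and Itgb2, Cpn1, the catalytic chain of the carboxypeptidase that trims anaphylatoxins, rose by 0.29 ± 0.092 (adjusted p = 0.0308), a call lost without any 1 of 6 female libraries, S64F/+ replicates 2, 4 and 5 or WT replicates 1, 2 and 3 (adjusted p up to 0.0807), with females alone (0.0839) and without the filter (0.0545). Susd4, a membrane protein reported to restrain complement, fell to 6.13 ± 1.35 CPM in female S64F/+ against 10.4 ± 1.23 CPM in female WT islets (SD, n = 5 each, adjusted p = 0.000656). The male minus female difference passed for 4 of the 24, all with the larger effect in males, where 4.47% of all genes passed and 2.87% did so in that direction. Among them were Crp (2.87 ± 0.67, adjusted p = 0.026), Itgax (1.54 ± 0.31, adjusted p = 0.0144) and Cd93 (1.03 ± 0.17, adjusted p = 0.00811).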

How the data were processed

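RNA was extracted with a column kit, samples had an RNA integrity number above 8.0, and libraries were read paired-end at 150 nucleotides on an Illumina NovaSeq6000, per the labels' protocols. The authors deposited raw counts per gene for reads on GRCm38. They also deposited FPKM values, which were used only to read the authors' gene lengths. Per the submitters' processing notes, tools included featureCounts, STAR, DESeq2, MultiQC and FastQC, with neither version nor role. The annotation, the strand setting and the treatment of multiply matching reads were not given in the sources used here. Of 53900 features, 99 spike-ins with 0 counts were left out.

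The counts were tested with edgeR 4.0.16 (limma 3.58.1, R 4.3.3). A filter, filterByExpr with minimum count 10 and minimum total 15, was applied, and the genes left were scaled by TMM (trimmed mean of M values) and fitted in 1 robust quasi-likelihood model over 18 libraries with 1 coefficient per group. Libraries of a group varied with a biological coefficient of variation of 24.4%. All tests were two-sided and adjusted by Benjamini-Hochberg over 18364 genes, and the SE is the log2 fold change over the square root of F. The scripts were tested on simulated data. Levels per kilobase divide CPM by the merged exonic bases of GENCODE M21. Limits for counts of 0 use 3 counts and cover counting error only. Promoters and motifs used RefSeq windows with Python 3.11.15, and the C4 transcripts were aligned with MAFFT 7.526.

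The complement genes and all gene lists were chosen with earlier results of these data known. All 31 complement genes were reported whatever their values. Of the other complement genes at most 8 called genes with the smallest p were named per contrast, and of cell markers at most 2 per list. A gene taken by that choice is counted but not reported here. The titles of the samples gave group and replicate number. The lowest chi-square per degree of freedom between replicates was 20.7, so none repeated another. Same-numbered female libraries deviated together from their group means (r = 0.110, 0.299, 0.110, 0.418 and 0.265), while the male ones had r of either sign (0.013, -0.244, -0.249 and 0.189). The labels do not say that equal numbers mark pairs. The main fit therefore used no pairing in either sex, and the replicate number entered as a block in both sexes only as an alternative. Alternatives were DESeq2 1.42.0 size factors, scaling by library size, DESeq2's test, no filter, each sex alone, the replicate number as a block, and leaving out each of 18 libraries.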

Additional observations from a re-analysis of the deposited data

Results flagged for a closer look

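In 12 of 116 combinations of a tested complement gene and a group, 1 library lay far from the rest of its group. For independent, normally spread values the rule would mark about 1 in every 20 such groups. CPM values need not be spread so, and the combinations share libraries. The share over all genes is not given here, so no excess is read from the count. C1qb was 22.7 CPM in male S64F/+ replicate 3, against 19.0 to 19.4 CPM in the other male S64F/+ libraries. C1rl was 2.77 CPM in male WT replicate 4 against 1.20 to 1.33 CPM, and 5.73 CPM in female S64F/+ replicate 3 against 1.43 to 2.34 CPM. Female S64F/+ replicate 3 also held 2.91 CPM of C2, against 1.32 to 1.73 CPM, and 28.2 CPM of Vtn, against 9.77 to 14.2 CPM. Cfb was 2.47 CPM in male S64F/+ replicate 3 against 0.371 to 0.428 CPM, and 0.746 CPM in male WT replicate 2 against 0 to 0.0665 CPM. In female WT islets C8g was 5.14 CPM in replicate 4 against 3.02 to 3.59 CPM, Vtn 19.6 CPM in replicate 5 against 9.90 to 12.6 CPM, and Cd46 2.71 CPM in replicate 2 against 1.70 to 1.92 CPM. Cd59a was 7.83 CPM in male WT replicate 4 against 10.9 to 11.3 CPM, the only low value of the 12. C5ar2 was 0.560 CPM in female S64F/+ replicate 1 against 0.132 to 0.208 CPM.

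The genotype effect differed between the sexes, by the test of the male minus female difference itself, for 7 named genes. The log2 differences were 1.499 for C1ra, 1.70 for C1s1, 3.47 for C7 and 0.63 for Clu, and 1.54 for Itgax, 1.03 for Cd93 and 2.87 for Crp. Those of C7, Itgax and Cd93 passed in each of the 18 fits that left out 1 library, those of C1ra, C1s1 and Clu were lost in 12, 14 and 12 of them, and that of Crp was lost in 4, with an adjusted p of 0.0571 without male S64F/+ replicate 1.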

How the results depend on the processing

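Scaling by library size moved the median of all genes by 0.22 in the male genotype contrast, 0.24 in the male minus female difference and 0.18 in male against female S64F/+ islets. Leaving out single libraries gave 14 to 17 members called in males, 4 to 6 in females, 1 to 7 for the male minus female difference, 0 to 1 in male against female WT and 5 to 11 in male against female S64F/+ islets, and 10 to 13 of the other complement genes in males. The male minus female count was 7 with DESeq2's test, C7 in male against female WT was lost with library-size scaling (0 members), and 3 other complement genes passed in females with each sex alone, without Itgb2 and Cpn1. With the replicate block 16 members were called in males, 4 in females and 4 for the difference. Of the genes named here it changed the call of Cr1l in females and no other. Values changed sign for C7 in females with the replicate block (0.031) and for the Cr1l difference with library-size scaling (0.10). Leaving out 1 library gave ranges across 0 in males for C1rl (-0.058 to 0.45) and C6 (-0.38 to 0.30). In females it did so for C1rl (-0.34 to 0.52), C1s1 (-0.016 to 0.33), Masp2 (-1.33 to 0.55), Hc (-0.61 to 0.022), C7 (-0.47 to 0.041), C8g (-0.061 to 0.15) and Vtn (-0.10 to 0.45). None of those had passed, and the cause was not tested. Over all genes the male minus female count of 821 became 1912 with DESeq2's test, 481 without a filter and 253 to 2152 without single libraries. The WT sex count of 434 became 112 with library-size scaling, 252 without a filter, 1067 with DESeq2's test and 71 to 643 without single libraries, that of S64F/+, 2962, became 1969 without a filter and 1651 to 4298 without single libraries, and the female genotype count of 3884 became 2587 with females alone. The authors' gene lengths, an alternative added after the data were seen, lowered the share of Clu in the summed level in all 4 groups. Hc, C6, C9, Cfb and C5ar2 rest on few counts.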
